A study of Homo sapiens with 16 samples.

Results

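The RNA regions described here are those still called as peaks after NAT10 had been lowered by siRNA in UM-UC-3 cells, an established human bladder cancer line. They were all peaks of the 2 lists made from NAT10-siRNA (NAT10-si) cells by ac4C immunoprecipitation (acRIP), in which an antibody against N4-acetylcytidine pulls down RNA that is sequenced beside the input RNA. A first round gave 666 peaks and a replicate round 16753, so that 17419 of the 28357 peaks in the 4 lists analysed belonged to NAT10-si cells. The remaining lists came from cells given a control siRNA, with 685 peaks in the first and 10253 in the replicate round. Cells had received 75 nM of siRNA and were taken after 48 h. Each arm and round had 1 list, so no count of peaks has a replicate within its round. Expression was measured by RNA-seq in 2 control and 2 NAT10-si libraries, labelled replicates 2 and 3, at 16967413 to 35045639 recovered reads. Nothing in the labels says that these came from separate cultures, and the p-values measure only the spread between these libraries. The arm of a first-round list was known only from the name the authors gave it.

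N4-acetylcytidine (ac4C) is a cytidine that carries an acetyl group on its base. NAT10 is the acetyltransferase that makes it in 18S ribosomal RNA, where the modified base lies in a CCG context, and in tRNA with the adaptor THUMPD1. Whether and where it occurs in messenger RNA has been debated. Peaks left after NAT10 siRNA can hold any RNA that the antibody still recovered, and a peak call does not by itself identify an acetylated base.

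The siRNAs define the arms, and their strands are shown as the labels give them, with the TT overhang in capitals.
NAT10 siRNA: ccaucucucgcaucuauuuTT
control siRNA: uucuccgaacgugucacguTT
NAT10 mRNA, in FPKM (a level scaled to gene length and library size), was 19.0 and 17.6 with control siRNA and 4.04 and 3.84 with NAT10 siRNA. The arms did not overlap, and the mRNA changed by -1.97 on the log2(FPKM + 1) scale, the scale of every log2 change below (standard error 0.06, limma with Benjamini-Hochberg adjusted p = 1.1e-04). NAT10 itself held 2 peaks in the replicate NAT10-si list, of which the higher had a fold of 14, and none in the other lists. THUMPD1 had no peak in any list, at 2.32 and 2.22 FPKM in the NAT10-si libraries.

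The first question was how much of the first NAT10-si list was found again in the replicate round. Of the 666 first-round peaks, 81 (12.2%) shared at least 1 base of an exon block on the same strand with a replicate-round peak. They met 82 replicate-round peaks, which is 0.489% of that list. Few sites thus occurred in both rounds, and most of each list had no counterpart. The same comparison of the control lists gave 41 of 685 first-round peaks (5.99%), against a replicate list that was shorter. When the replicate list was cut to the 666 peaks of smallest p, so that both lists had equal length, 8 sites remained. Among them were sites in MT-ND2 and MT-ND4, mitochondrially encoded subunits of respiratory complex I; NEAT1, the long noncoding RNA that scaffolds paraspeckles; MAT2A, which makes S-adenosylmethionine; its neighbour GGCX, a vitamin K-dependent carboxylase; LUC7L3, a splicing factor; and RASA3, a Ras GTPase-activating protein.

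Named genes were in both lists far more often than sites. The first list held 625 genes and the replicate list 11087, and 412 genes were in both. That was 65.9% of the first list's genes and 3.72% of the replicate list's. Among all 58302 genes of the expression table, 1.07% had a peak in the first list, 19.0% in the replicate list and 0.707% in both. In 335 of the 412 genes no peaks overlapped. There the nearest peaks of the 2 rounds lay a median of 4906 bases apart along the genome, within 200 bases in 25 genes, within 1000 bases in 87 and over 10000 bases apart in 115. GAPDH, ACTB, EEF1A1 and EEF2, abundant transcripts of glycolysis, the cytoskeleton and translation elongation, each had peaks in both rounds that did not overlap. With the replicate list cut to 666 peaks, 35 genes stayed in both.

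The overlapping sites were partly shared with control cells. Of the 81 first-round peaks, 31 (38.3%) also overlapped a peak of the replicate control list. Of the 585 peaks without a replicate-round NAT10-si counterpart, 10 (1.71%) did. The 81 were chosen for meeting the replicate NAT10-si list, which 73.9% of replicate control peaks overlapped, so this contrast comes largely with the choice. Seen from the replicate list, 48.8% of the 82 overlapped NAT10-si peaks also met a replicate control peak, close to the 44.0% of all 16753. Only 4 of the 81 overlapped a peak of the first control list, 1 of them, in MT-ND2, overlapped peaks of both control lists, and 47 overlapped neither. Against the replicate control list the first NAT10-si list had 41 overlapping peaks (6.16%), and against its own round's control list 21 (3.15%). Overlap was more frequent with the longer lists, whichever siRNA they came from, but not in proportion to the exon sequence they covered. The first control list covered 138.474 kb, the replicate control list 2294.13 kb and the replicate NAT10-si list 4418.45 kb. Relative to the sequence covered, overlap was densest with the control list of the same round. The lists were called separately, so a peak missing from one is not a measured loss of signal.

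The 2 lists differed in kind as well as in length. First-round peaks were narrow and steep, with a median length of 181 bases, a median fold of 56.2 and a median log10 p of -41.25, and 3 of 666 (0.45%) were over 500 bases long. Replicate-round peaks had a median length of 210 bases, a median fold of 14 and a median log10 p of -6.53, and 1496 (8.93%) were over 500 bases. Folds and p-values are the authors' and describe peaks within their own list. All 666 first-round peaks had a false discovery rate of at most 0.05, as did 13113 of the 16753 replicate-round peaks. One pair of values, a fold of 14 with a log10 p of -1.43, recurred in 1023 replicate-round peaks (6.11%). It also belonged to 5 of the 82 overlapped replicate-round peaks (6.1%), among them those in STRADB and C12orf56. The first-round list covered 131.013 kb of exon sequence and the replicate list 4418.45 kb.

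Overlapped replicate-round peaks were longer than the rest of their list. Their median length was 256 bases against 210, and 23.2% against 8.86% were over 500 bases; a longer peak also has more bases to meet another by. The widest and second widest peaks of the replicate list, 3327 bases in NEAT1 and 3267 bases in LUC7L3, each met a first-round peak, and so did the fifth widest, 2513 bases in MAT2A. The third, in OGT, and the fourth, in HNRNPDL, did not. A first-round peak at an overlapping site shared a median of 75% of its bases, and 32 peaks lay wholly inside the replicate-round peak. In 3 cases, in H2BC4, HLA-DOB and the unnamed gene ENSG00000272772, a single base was shared.

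Some sites were counted on both strands. Of first-round peaks, 45 (6.76%) overlapped a peak of the same list on the other strand, and of replicate-round peaks 1681 (10.0%). In 14994 of 14996 checked peaks the strand was that of the annotated gene. The tail-to-tail neighbours MAT2A and GGCX show the pattern, with first-round folds of 30.4 and 32.6 at chr2:85544981-85545160 and chr2:85544992-85545172 (GRCh38 coordinates, counted from 1). With overlapping peaks merged and strand ignored, the 81 peaks fell at 75 places and the 666 at 622. Genes on the same strand could share a place too, as CD68, a macrophage marker, and the unnamed gene ENSG00000264772 did. CD68 mRNA was at 0.0482 and 0.204 FPKM in the NAT10-si libraries.

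Position along the gene separated the rounds. Of first-round peaks in protein-coding genes, 30.1% had their middle in the last 10% of the annotated gene span, against 65.0% of replicate-round peaks. The control lists gave 28.7% in the first and 72.8% in the replicate round, so the rounds differed in the same direction in both arms. Within the replicate round the NAT10-si list had the lower share; with 1 list per arm and round this was not tested. Within 1000 bases of the gene's end lay 12.6% of the 554 first-round peaks and 56.3% of the 13511 replicate-round peaks. The first 10% of the gene span held 7.58% and 3.4%. Overlapping first-round peaks were nearer the replicate list in this respect, with 49.3% of 67 in the last 10% and 44.8% within 1000 bases of the end. They were chosen for meeting a peak of that list, so this likeness comes with the choice. The replicate-round peaks they met had 53.7% in the last 10%.

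**Figure D1:**
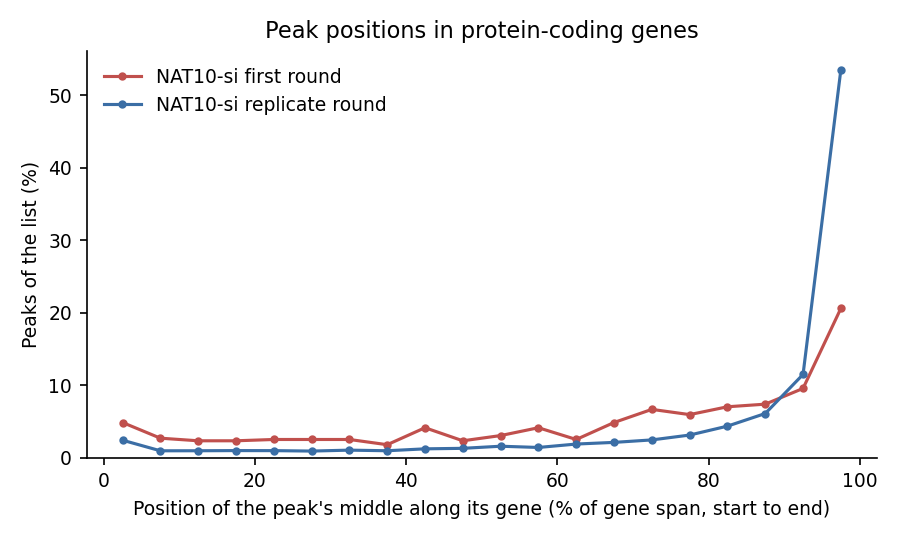
Share of peaks (vertical axis, %) by the position of the peak's middle along its protein-coding gene (horizontal axis, % of the RefSeq gene span from start to end, introns included), for the 2 NAT10-si lists in bins of equal width. The replicate list is concentrated at the gene end, where the last 10% of the span holds 65.0% of peaks against 30.1% in the first list.

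Peaks over transcription start sites were few, and 1 gene had them in both rounds. A peak covering at least 10 of the first 50 transcribed bases was found for 9 genes of the first list and 273 of the replicate list, counting genes with 1 start in RefSeq. In such genes the lists held 362 and 8781 peaks, of which these counts are 2.49% and 3.12%. Sharing in 1 of 9 genes does not stand apart from the 12.2% of all first-round peaks that met a replicate-round peak. EDF1, a transcriptional coactivator that also binds stalled ribosomes, was the gene with such a peak in both rounds. Its first-round peak, of 3 exon blocks and 301 bases with a fold of 49.5, lay wholly inside the replicate-round peak of 451 bases, at a fold of 11, and no control peak overlapped it. EDF1 mRNA was at 119 and 116 FPKM in the control and 117 and 125 FPKM in the NAT10-si libraries. The arms overlapped, and the log2 change of 0.04 (standard error 0.05) did not pass the test (limma adjusted p = 0.49).

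The transcribed bases under that peak are shown beside those of 3 start sites covered in the first round alone, to let their letters be compared. They are taken from RefSeq on GRCh38.p14, in the sense of the gene, with each CCG in capitals.
EDF1: gCCGgacggacgctcgtcttcgcCCGcc
CCNL1: agtcttgtttcgggttCCGgctgcgttggg
EIF4A3: acagcgaggtcggcagcggcacagcgaggt
NUP35: gtagttgCCGacgcaatggcagcctttgca
The EDF1 stretch spans bases 23 to 50 of the transcript (chr9:136866259-136866286, minus strand) and holds 2 CCG. The others are the first 30 bases of each transcript, at chr3:157160118-157160147 (minus strand), chr17:80147099-80147128 (minus strand) and chr2:183124443-183124472 (plus strand). CCNL1 encodes cyclin L1, a regulator of splicing kinases, EIF4A3 an exon junction complex helicase and NUP35 a nuclear pore protein. The start sites of MRPS30, TXLNB, ATP1A4, PTMA and PRDX2, also covered in the first round alone, are not shown. Of their stretches under the peak, cut to at most 30 bases, that of PRDX2 alone held a CCG. CCG, sought on the transcript strand alone, was present in the first 50 bases of 6 of the 9 first-round start-site genes (66.7%) and of 187 of the 273 replicate-round genes (68.5%). It was present in 76.4% of the 6781 such windows of genes measured at a mean of at least 1 FPKM. Of all 22114 windows of genes with 1 start, expressed or not, 49.7% held it. Start-site genes, which were not limited to expressed ones, lay between these shares.

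Expression and the recovery of a gene in the replicate round ran together. The RNA-seq libraries used carry a replicate number, whereas the first-round acRIP samples carry none. For genes of the first list only, low expression and a difference between the rounds therefore cannot be told apart. Genes in both lists had a median of 11.7 FPKM in NAT10-si cells, 11.6 and 11.4 FPKM in the separate libraries. Genes of the first list only had a median of 0.963 FPKM (0.938 and 0.923 FPKM), and genes of the replicate list only 5.91 FPKM (5.93 and 5.91 FPKM). Among genes averaging at least 1 FPKM over the 4 libraries the medians kept this order but lay closer together, at 12.6, 4.92 and 8.28 FPKM. Of the 213 genes of the first list only, 46 (21.6%) were listed at 0 in both NAT10-si libraries, against 6 of 412 (1.46%) in both lists and 275 of 10675 (2.58%) in the replicate list only. In a bulk sample, fewer expressing cells and less RNA per cell cannot be told apart.

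The share of first-list genes found again rose from 11.5% of those at 0 FPKM to 53.4% between 1 and 3 FPKM, 72.6% between 3 and 10 FPKM, 84.2% between 10 and 30 FPKM and 98.0% between 30 and 100 FPKM, and was 93.9% above 100 FPKM. The share of all genes with a replicate-round peak rose in the same way, from 0.972% at 0 FPKM to 41.4%, 64.5%, 78.8%, 88.0% and 89.4% in those ranges. Among expressed genes, recovery in the replicate round was thus only modestly above that of any gene of like expression. Overlap of the peaks themselves stayed low, at 10.1% of first-list genes between 3 and 10 FPKM and 13.6% between 10 and 30 FPKM. It reached 39.4%, or 13 of 33 genes, above 100 FPKM.

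**Figure D2:**
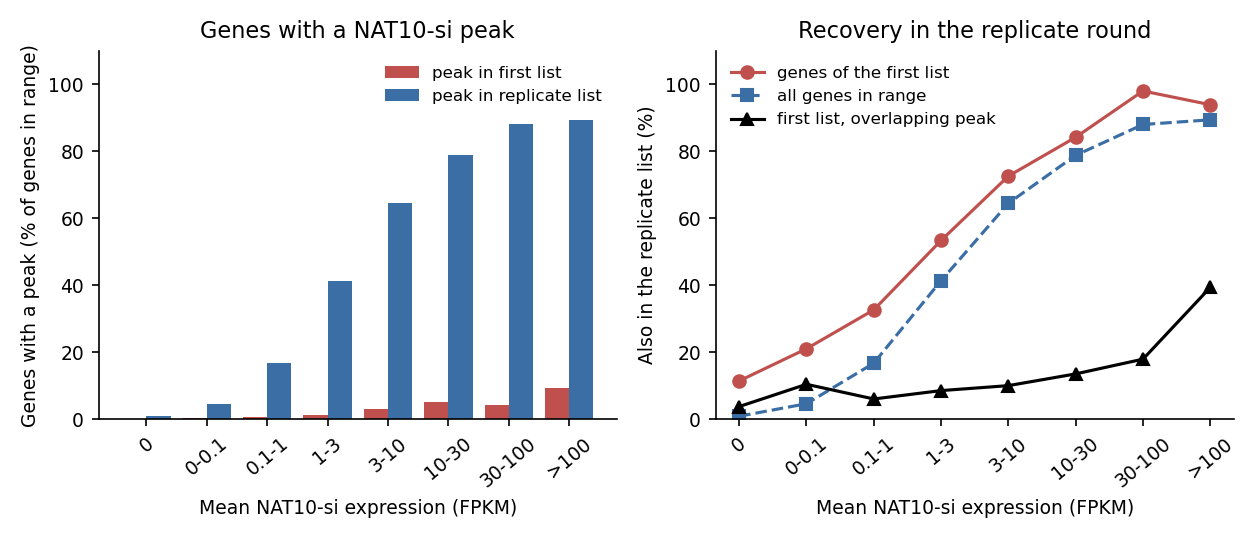
Left, share of all genes in each range of mean NAT10-si expression (horizontal axis, FPKM) that had a peak in the first (red) or replicate (blue) NAT10-si list. Right, share of first-list genes also in the replicate list (red circles), of all genes in the replicate list (blue squares) and of first-list genes with an overlapping peak (black triangles), which reached 39.4% above 100 FPKM.

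Gene types followed the same division. Of the 412 genes in both lists, 383 (93.0%) were protein-coding, 5 were long noncoding RNAs (LINC02076, LINC02604, NEAT1, TUBA1B-AS1 and FAM66C), 2 were transcribed pseudogenes and 22 had no RefSeq match by symbol. Of the 213 genes of the first list only, 148 (69.5%) were protein-coding, 11 were long noncoding RNAs, 11 pseudogenes and 39 unmatched. No gene that RefSeq types as a microRNA was in either list. The first-only genes at 0 or near it included the olfactory receptors OR2F1, OR2M3 and OR52P1 and the neuronal sodium channel SCN3A. Of all olfactory receptors 0.743% and of ion channels 1.72% were in the first list, near the 1.07% of all genes. The SCN3A peak had a fold of 7310, and its mRNA was at 0.0107 and 0 FPKM.

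The peaks of highest fold were mostly at different places in the 2 rounds, as were the peaks of the lists in general. Of all peaks, 12.2% of the first list and 0.489% of the replicate list met a peak of the other NAT10-si list. The top fold of the first list was 15000 in ERICH6B, a gene of 1.10 and 1.48 FPKM that had no replicate-round NAT10-si peak but had a first-round control peak. MEGF11, with a first-round fold of 11700, had a replicate-round peak of fold 14 elsewhere in the gene. Of the 10 genes of highest first-round fold 7 were also in the replicate list, against 65.9% of all first-list genes. Among their peaks, that in STRADB, a pseudokinase of the LKB1 complex, met a replicate-round peak of the same gene; the MRPS6 peak met one named for another gene. The top folds of the replicate list were 11700 in LENG9 and 9790 in LINC01363, followed by ST3GAL1-DT, SNHG19 and VAMP1, and none of its 10 genes of highest fold was in the first list, which held 3.72% of all replicate-list genes. All 10 of these genes had a replicate control peak, as did 49.6% of all genes measured at a mean of at least 1 FPKM. That measured set includes genes without a NAT10-si peak. Of the 11087 genes of the replicate NAT10-si list, the closer comparison, 61.6% were also in the replicate control list.

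Functional groups were read from lists of genes, over members measured at a mean of at least 1 FPKM. Of all 14004 measured genes, 3.48% had a first-round peak and 64.5% a replicate-round peak and 2.73% both. Actin, tubulin and other cytoskeletal genes had the highest share in the first list among lists with at least 10 measured members, 10 of 37 (27.0%), and all 10 were in both: ACTB, FLNA, MYH9, PLEC, TPM1, KRT8, AHNAK2, TUBA1B, TUBA1C and TUBB6. None of these had overlapping peaks, but only 18.7% of all genes in both lists did, and 10 genes are too few to stand apart from that. The cytoskeletal list had a median of 77.8 FPKM. Of all genes between 30 and 100 FPKM 4.28% had a first-round peak, and of those above 100 FPKM 9.43%. Glycolysis followed with 3 of 17 (17.6%), GAPDH, LDHA and TPI1, and only TPI1, triosephosphate isomerase, had overlapping peaks. Ribosome biogenesis had 7 of 47 (14.9%), among them NOP2, an rRNA methyltransferase, TCOF1, the treacle protein, and UBTF, a factor of RNA polymerase I. Mitosis genes had 7 of 55 (12.7%), among them MKI67, CENPF and CCNA2.

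DNA repair is the subject named in the study's title. Of 59 measured repair genes 41 (69.5%) had a replicate-round peak and 1 (1.69%) a first-round peak, ERCC2, the XPD helicase of nucleotide excision repair. All measured genes stood at 64.5% and 3.48%, and the list is too short for a count of 1 to stand apart from that. The ERCC2 peaks of the rounds did not overlap, and its mRNA stood at 13.2 and 12.3 FPKM in control and 14.6 and 14.8 FPKM in NAT10-si libraries, higher by a log2 value of 0.19 (limma adjusted p = 0.029, and 0.08 to 0.13 without control replicate 3 or either NAT10-si library). Stress response genes had a first-round peak in 3 of 29 (10.3%), all in both lists: ATF4, MANF, a secreted endoplasmic reticulum stress factor, and SLC3A2, an amino acid transporter subunit. MANF rose from 38.1 and 40.9 FPKM to 68.8 and 81.3 FPKM, and SLC3A2 from 36.6 and 35.7 FPKM to 59.9 and 62.1 FPKM, with arms that did not overlap in either gene. ATF4 alone of the 3 had overlapping peaks, which 18.7% of all genes in both lists had. Splicing factors had a first-round peak in 4 of 55 (7.27%), HNRNPA2B1, SRSF2, SRSF3 and SRSF4, and the first, second and last of these were in both lists and fell, as did 38 of the 55.

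Ribosomal protein genes were highly expressed but rare in the first list. Cytosolic ribosomal proteins, at a median of 203 FPKM, had a replicate-round peak in 83 of 83 measured genes and a first-round peak in RPS19 alone (1.2%). The RPS19 peaks of the 2 rounds did not overlap. Of 23 measured snoRNA host genes, 22 had a replicate-round peak and none a first-round peak. For 29 genes of RNA modification the counts were 23 and 0, and for 16 NF-kB targets 13 and 0. These 3 lists had medians of 9.14 to 16.9 FPKM and are too short for a count of 0 to stand apart from the 3.48% of all measured genes. Of the 13 mitochondrially encoded protein genes, 11 had a replicate-round peak, and MT-ND2 and MT-ND4 a first-round peak that overlapped it. MT-RNR2, the mitochondrial 16S rRNA, had 1 first-round NAT10-si peak and 3 first-round control peaks, and none in either replicate-round list, at 6591 and 7127 FPKM in the NAT10-si libraries.

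**Figure D3:**
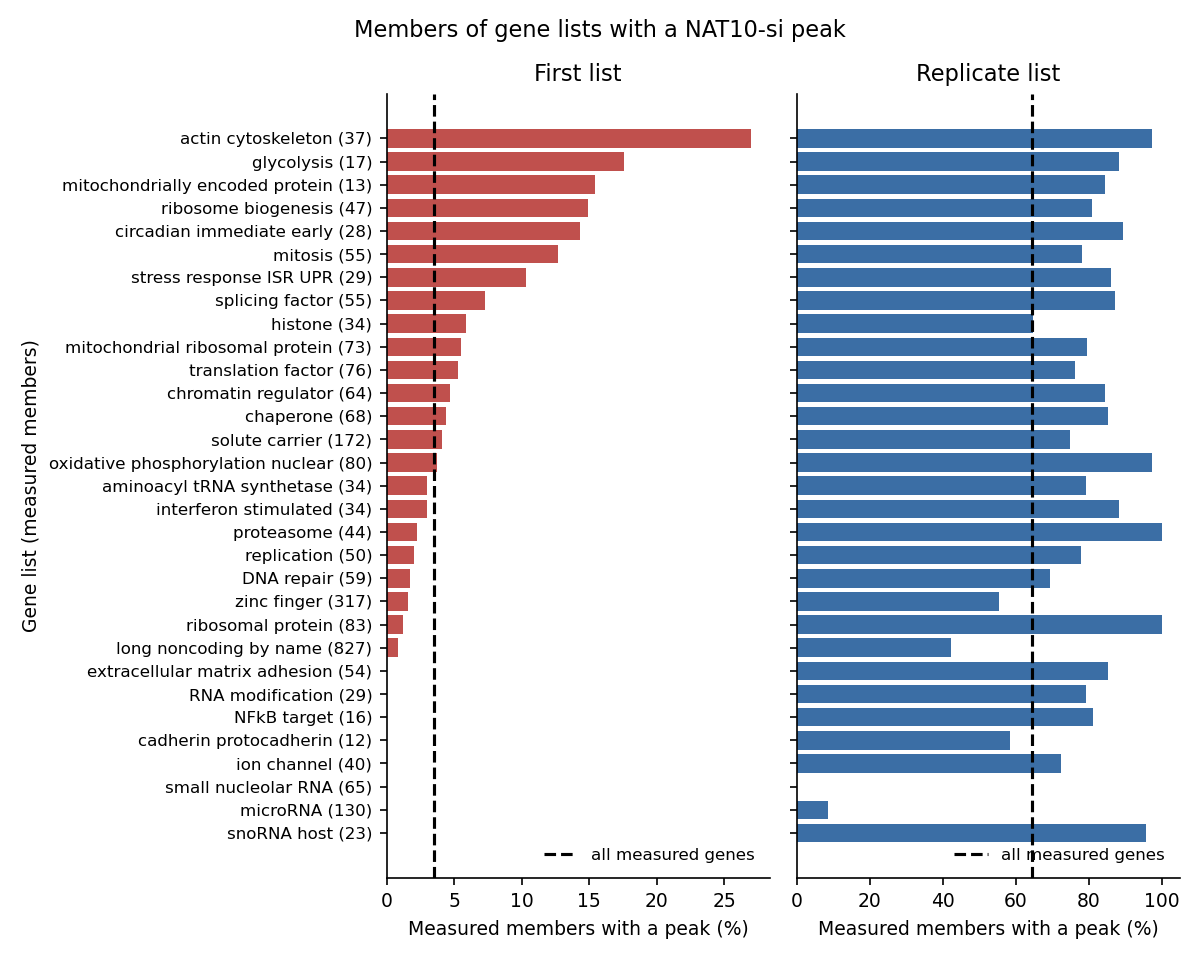
Share of measured members with a peak in the first (left) and the replicate (right) NAT10-si list (horizontal axes, %) for each gene list with at least 10 measured members, whose number is in parentheses. The dashed lines mark all measured genes, 3.48% and 64.5%; the cytoskeletal list leads on the left at 27.0%, and ribosomal proteins stand at 1.2% on the left, and all have a peak on the right.

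Transcripts of genes in both lists were then compared between the arms. Of all 14004 genes tested, 55.8% passed the limma threshold (adjusted p under 0.05), 27.9% higher and 27.9% lower with NAT10 siRNA. Of the 412 genes in both lists 383 were expressed enough to be tested, and 251 (65.5%) passed, 104 (27.2%) higher and 147 (38.4%) lower. Their median log2 change was -0.05, against 0.01 over all genes tested. Between 10 and 30 FPKM, 71.1% of both-list genes and 65.2% of all genes tested passed. These shares were 63.9% and 57.9% between 3 and 10 FPKM, and 74.2% and 71.7% above 100 FPKM. The order was reversed between 1 and 3 FPKM, at 35.5% and 37.6%, and between 30 and 100 FPKM, at 65.3% and 69.2%. How far the higher count of calls went with expression was not tested. The share lower between 10 and 30 FPKM was 40.3% against 31.0%, and between 3 and 10 FPKM it was 41.8% against 30.6%. Between 1 and 3 FPKM it was 16.1% against 18.5%. Genes of the first list only had 21 higher and 44 lower of 105 tested.

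Of the both-list cytoskeletal genes 7 of 10 fell and 1 rose, of the mitosis genes 5 of 6 fell, and of the ribosome biogenesis genes 4 of 4 fell. In the whole measured lists 17 of 37 cytoskeletal genes, 51 of 55 mitosis genes and 41 of 47 ribosome biogenesis genes fell, so members without peaks in both rounds fell as well. MKI67, a proliferation marker, stood at 71.9 and 64.3 FPKM in control and at 27.9 and 24.9 FPKM in NAT10-si libraries. This is a log2 change of -1.34 (standard error 0.08, limma adjusted p = 2.9e-04). TUBA1B, an alpha-tubulin, stood at 762 and 763 FPKM in control and 410 and 431 FPKM in NAT10-si libraries, lower by a log2 value of -0.86 (limma adjusted p = 1.9e-04). In neither gene did the arms overlap. TUBA1B lies next to TUBA1B-AS1, which stood at 1321 and 1353 FPKM in control and 720 and 761 FPKM in NAT10-si libraries, a log2 change of -0.85. The RefSeq spans of these genes do not overlap. The sources used here do not say whether counting used strand.

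The largest fall among both-list genes was that of PPP1R10, a nuclear phosphatase-targeting subunit, from 15.4 and 13.9 FPKM to 3.48 and 3.31 FPKM, a log2 change of -1.83. The log2 changes of PRKAR2A, a protein kinase A subunit, EIF5, a translation initiation factor, and USP1, a deubiquitinase, were -1.60, -1.58 and -1.42. The largest rise was that of the unnamed gene ENSG00000226380, from 2.31 and 2.90 FPKM to 19.8 and 19.4 FPKM. H2BC4, a histone H2B gene, rose from 1.05 and 1.47 FPKM to 7.09 and 7.71 FPKM, a log2 change of 1.90 (limma adjusted p = 2.8e-04). The arms did not overlap in any of these genes.

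Genes whose peaks overlapped between the rounds moved in both directions. Of these 77 genes 68 were tested, of which 20 rose and 18 fell. This is 29.4% and 26.5%, close to the 27.9% of all genes tested in each direction, and their median log2 change was 0.02. The counts favoured neither direction.

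Some regulators of transcription and the cell cycle had overlapping sites. JUN, an AP-1 transcription factor, stood at 130 and 126 FPKM in control and at 279 and 295 FPKM in NAT10-si libraries, a log2 change of 1.16 (standard error 0.05, limma adjusted p = 1.4e-04). Its first-round peak of 181 bases, at chr1:58781538-58781718, lay inside a replicate-round peak of 901 bases. CDKN1A, the p53 target that encodes the cell cycle inhibitor p21, rose from 48.5 and 51.3 FPKM to 57.8 and 57.7 FPKM, a log2 change of 0.21 (limma adjusted p = 0.012, and 0.066 without control replicate 2). PHLDA1, a stress-induced gene, rose by a log2 value of 0.68. ATF4, the transcription factor of the integrated stress response, stood at 140 and 137 FPKM in control and at 138 and 146 FPKM in NAT10-si libraries, so the arms overlapped (limma adjusted p = 0.52).

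RNA-processing genes were split. NEAT1 rose from 35.0 and 37.0 FPKM to 85.4 and 88.8 FPKM, a log2 change of 1.25 (limma adjusted p = 1.4e-04). Its first-round peak at chr11:65426453-65426693 had a fold of 292 and shared 121 bases with the replicate-round peak of fold 136, which is 3327 bases long. LUC7L3 and CCNL1 rose by log2 values of 0.77 and 1.10. RBMX, which binds RNA at splice sites, fell from 46.3 and 47.4 FPKM to 23.1 and 24.8 FPKM, a log2 change of -0.94 (limma adjusted p = 2.4e-04). HNRNPA2B1, a splicing and RNA transport factor, SNRPB, a core snRNP protein, and TARDBP, the RNA-binding protein TDP-43, fell too, with log2 changes of -0.43, -0.34 and -0.28. The TARDBP call (limma adjusted p = 0.015) was lost without control replicate 3 (0.059) and without NAT10-si replicate 2 (0.058). PCBP2, a poly(C)-binding protein, stood at 21.5 and 23.6 FPKM in control and 21.8 and 23.2 FPKM in NAT10-si libraries, and the arms overlapped.

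Metabolic and transport genes with overlapping sites were also divided. MAT2A rose from 237 and 242 FPKM to 376 and 372 FPKM, a log2 change of 0.64, and GGCX by a log2 value of 0.45; these genes share the place described above. VAMP3, a vesicle fusion protein, fell from 36.6 and 37.9 FPKM to 19.4 and 19.3 FPKM, a log2 change of -0.91 (limma adjusted p = 2.0e-04). RANGAP1, which drives Ran GTPase cycling in nuclear transport, fell by 0.55 on the log2 scale. NQO1, a quinone reductase, stood at 74.8 and 74.5 FPKM in control and 74.7 and 76.5 FPKM in NAT10-si libraries, with arms that overlapped. MT-ND4 was at 6272 and 6306 FPKM in control and 6775 and 6889 FPKM in NAT10-si libraries, higher by a log2 value of 0.12. MT-ND2, of the same complex, was lower by a log2 value of -0.28. Both mitochondrial calls (limma adjusted p = 0.043 and 0.0041) were lost when either control library was left out, with adjusted p of 0.44 to 0.48 for MT-ND4 and 0.078 to 0.09 for MT-ND2.

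**Figure D4:**
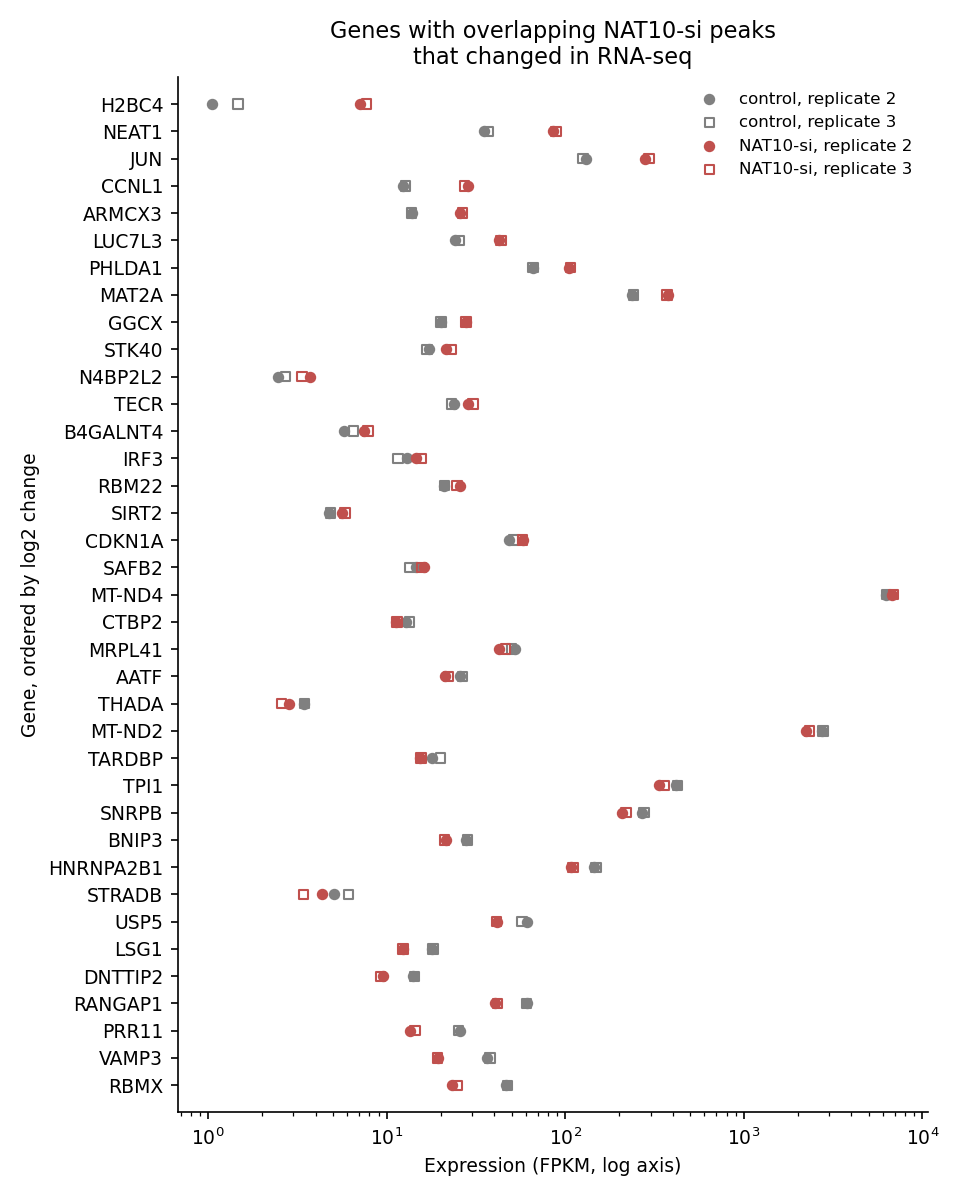
Expression (horizontal axis, FPKM, log axis) of 37 symbol-named genes with overlapping NAT10-si peaks that passed the limma threshold, with 1 riser not shown, ordered by log2 change, with 1 point per library: control in grey, NAT10-si in red, replicate 2 filled and replicate 3 open. The 19 plotted genes that rose run from H2BC4 at the top down to MT-ND4, and the 18 that fell end with RBMX at the bottom.

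Genes of the first list only that were well expressed stood out from the rest of that group. After MT-RNR2 and the unnamed gene ENSG00000256364 the highest were RAD21, a cohesin subunit, at 57.5 and 55.1 FPKM, PUM3, a nucleolar Pumilio-family protein, at 28.0 and 24.1 FPKM, and SCRIB, a polarity scaffold, at 24.97 and 25.6 FPKM. MCM2, a subunit of the replicative helicase, had a first-round peak of fold 35.9 and none in any other list. Its mRNA fell from 54.5 ± 1.62 to 20.005 ± 0.00963 FPKM (mean ± SD, n = 2), a log2 change of -1.40 (limma adjusted p = 1.1e-04). Of genes linked to NAT10 in other work, AHNAK had 3 replicate-round NAT10-si peaks, BCL9L 2, AKT1 1 and SOX4 none, and none of them had a first-round NAT10-si peak. In the control lists AHNAK had 1 peak in each round, BCL9L and AKT1 1 each in the replicate round, and SOX4 none.

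Of 15 urothelial and epithelial markers 6 (KRT7, KRT8, KRT18, KRT19, PPARG and UPK2) were at or above 1 FPKM in the NAT10-si libraries, the others were lower and UPK3A was at 0. The mesenchymal markers VIM, CDH2 and ZEB1 were all at or above 1 FPKM and summed to 483 and 508 FPKM there, against 90.6 and 85.8 FPKM for the epithelial list. Of the immune markers LCP1 alone reached 1 FPKM. PTPRC, a leukocyte marker, was listed at 0 there too. The 6 plasma-cell genes summed to 0.879 and 0.112 FPKM with control siRNA and to 59.4 and 13.6 FPKM with NAT10 siRNA, and none of the 6 had a peak in either NAT10-si list. Their part in the expression differences was not tested.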

How the data were processed

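Peaks were read from the authors' lists, 1 per arm and round, which per the file headers give exon blocks, a fold enrichment (ratio), a p-value and the scores log10 p and log10 false discovery rate. No source used here names the peak caller. The deposited expression table was read as FPKM because column sums were 310508 to 319225 and steps depended on the gene. Per the submitters' processing notes the tools included HISAT2 2.1.0, HTSeq 0.6.1 and bcl2fastq 2.19.1, with hg19 as build, yet 97.3% to 98.4% of peaks in genes matched by symbol to RefSeq overlapped that gene in GRCh38.p14, so coordinates are given as GRCh38. Overlap needed 1 base of exon block on the same strand, and overlaps were checked with bedtools 2.31.1. Values of log2(FPKM + 1) were fitted by limma-trend (R 4.3.3, limma 3.58.1) for the 14004 genes averaging 1 FPKM or more, adjusted over all of them by Benjamini-Hochberg; the fit was tested on simulated data. Whole reads were recovered for 27566 of 27571 genes within a relative deviation of 4.9e-07. A symbol was found for 57532 of 58302 genes. Members and gene lists were chosen with earlier results of these data known. Named genes were the 10 highest folds per list, the 40 genes with overlapping peaks of smallest first-round p, the 10 both-list genes of highest FPKM, up to 4 both-list members per gene list, the 10 highest genes of the first list only and of neither, 6 genes tied to NAT10, and the 5 largest changes each way; some genes that this rule takes are not reported here. LUC7L3, CCNL1, PHLDA1, RASA3, CD68, OGT, HNRNPDL, NUP35, FAM66C and the olfactory receptors were named after their values were seen. Libraries from T24 cells and the UM-UC-3 RNA-seq libraries without a replicate number are not used here.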

Additional observations from a re-analysis of the deposited data

How the results depend on the processing

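The 81 overlapping first-round peaks became 64 when 50% of the shorter peak had to be shared, 83 over whole spans, 82 with strand ignored and 69 at a false discovery rate of at most 0.01 in both lists. With the replicate list cut to equal length by p there were 8, and the 412 genes in both lists became 35; the cut list holds fewer peaks by construction. Genes in both lists were otherwise 343 to 412. The median NAT10-si FPKM of genes in both lists was 11.4 to 11.6 with 1 NAT10-si library left out, that of genes of the first list only 0.923 to 0.938 and that of genes of the replicate list only 5.91 to 5.93. With genes of a mean under 1 FPKM removed, these medians were 12.6, 4.92 and 8.28, in the same order but closer together. Genes passing the RNA-seq threshold numbered 5615 to 7810 under the other limma-trend settings and 8854 with voom on recovered reads, and 184 to 288 of the both-list genes passed. The replicate numbers did not pair the samples (correlation 0.0125 across 14004 genes between the arms' replicate differences). With the replicate number as a block, 7294 genes and 232 both-list genes passed. Of 158 single genes compared, 13 to 21 lost their call with 1 library left out, 10 with the block and 25 without the filter on low values. No direction reversed in these settings. One list per arm and round leaves the error of every peak count unknown, and low genes are limited by depth.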
